A study of Homo sapiens with 4 samples.

Results

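Caveolins and cavins are the coat proteins of caveolae, and EHD2 sits at their neck. The 6 genes CAV1, CAV2, CAVIN1, CAVIN2, CAVIN3 and EHD2 were taken by gene symbol from the 35993 genes of the table of the 4 MDA-MB-231 libraries, and all 6 passed the filter on low counts (16599 genes whose counts averaged 10 or more over the libraries). They were chosen by name with their levels in these same libraries already known, so their values are a description and carry no test. MDA-MB-231, an established line from a human breast cancer, is a triple-negative line of mesenchymal character. The cells were transfected with control siRNA (siControl) or with siRNA against CTGF (siCTGF), and from each transfection 1 culture was left untreated and 1 was given kahweol, a coffee diterpene, at 50 µM for 48 h. Kahweol was given in serum-free medium, its stock was dissolved in DMSO, and the labels call the other cultures untreated and name no vehicle. The knockdown is transient and was made in a single cell line. Each of the 4 conditions is 1 library, so no difference below has a replicate check, and every interval covers counting error only.

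Caveolae are flask-shaped pits of the plasma membrane, abundant in endothelial cells, adipocytes and muscle, which flatten under stretch and so buffer membrane tension. Caveolins are inserted into the membrane as oligomers, and CAV1 is the one without which non-muscle cells form no caveolae. Cavins assemble on the inner face as a second coat that depends on CAVIN1, and EHD2, an ATPase, forms rings at the neck that keep the pit at the cell surface.

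Total counts ran from 44781516 to 59129784 per library. CCN2, the gene of CTGF and the target of the siRNA, stood at 159 CPM (TMM-scaled counts relative to library size) in untreated siControl against 63.6 in untreated siCTGF, and at 186 against 31.8 CPM with kahweol. The label epithelial cell was checked against markers: the keratins KRT8 (273 to 414 TPM) and KRT18 (464 to 478 TPM) were high, the epithelial cadherin CDH1 was low (2.28 to 4.29 TPM) and the mesenchymal filament VIM was at 2082 to 2819 TPM. The estrogen and progesterone receptor genes ESR1 and PGR reached at most 0.0281 and 0.0928 TPM, and ERBB2 was at 20.1 to 31.5 TPM. Of the 3 fibroblast markers, DCN and LUM reached at most 0.0214 and 0.0273 TPM, while PDGFRB was at 4.54 and 3.49 TPM without and 2.99 and 2.88 TPM with kahweol. The leukocyte marker PTPRC reached at most 0.0456 TPM. Of the markers of caveola-rich cell types, the endothelial PECAM1, CDH5 and VWF summed to 1.38 and 1.07 TPM in the untreated libraries and to 0.335 and 0.203 TPM with kahweol. The adipocyte markers ADIPOQ and PLIN1 summed to 0.270 to 0.841 TPM and the smooth muscle markers MYH11 and DES to 0.512 to 0.766 TPM. All 7 of these markers were below 1 TPM in every library. Small noncoding RNA took 2.43% and 2.74% of the counts without kahweol and 3.60% and 3.86% with it. Mitochondrial rRNA took 3.94% and 3.11% without and 4.33% and 6.01% with it. The epithelial marker KRT19 also moved with kahweol, from 464 and 350 TPM to 150 and 119 TPM. EPCAM, another epithelial marker, went from 39.0 and 37.9 TPM to 26.2 and 23.2 TPM, and KRT8 from 414 and 376 to 330 and 273 TPM. KRT18 stayed nearly level, at 473 and 464 TPM without and 478 and 477 TPM with kahweol. CDH1 was at 3.77 and 4.29 TPM without and 3.51 and 2.28 TPM with it. The part of these shifts in the results below was not tested.

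Promoters are shown for the genes whose levels the results turn on, since these genes were low together in the kahweol libraries. The RefSeq promoter table (GRCh38.p14) matched 4 of the 6 genes (all but CAVIN1 and CAVIN3), with 7 entries. Each line gives the 250 bases before the first listed start, 5′ to 3′ along the gene's strand, with motif matches in capitals. The regions are chr7:116524759-116525008 (plus strand) for CAV1, chr7:116499488-116499737 (plus) for CAV2, chr2:191847089-191847338 (minus) for CAVIN2 and chr19:47713172-47713421 (plus) for EHD2. The capitals mark GGGCGG or its reverse complement in CAV1, CAV2 and EHD2, and GGAATG in CAVIN2.
CAV1: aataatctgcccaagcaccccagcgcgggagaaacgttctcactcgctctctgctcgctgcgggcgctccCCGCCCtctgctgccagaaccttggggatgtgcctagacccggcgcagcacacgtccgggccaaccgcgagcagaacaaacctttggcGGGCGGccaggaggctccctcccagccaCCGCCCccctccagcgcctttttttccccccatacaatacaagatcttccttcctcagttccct
CAV2: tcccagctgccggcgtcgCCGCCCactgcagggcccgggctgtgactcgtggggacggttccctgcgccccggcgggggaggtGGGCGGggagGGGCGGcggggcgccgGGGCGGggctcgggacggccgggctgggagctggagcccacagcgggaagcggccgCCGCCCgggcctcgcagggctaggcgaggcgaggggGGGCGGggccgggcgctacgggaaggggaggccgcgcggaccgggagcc
CAVIN2: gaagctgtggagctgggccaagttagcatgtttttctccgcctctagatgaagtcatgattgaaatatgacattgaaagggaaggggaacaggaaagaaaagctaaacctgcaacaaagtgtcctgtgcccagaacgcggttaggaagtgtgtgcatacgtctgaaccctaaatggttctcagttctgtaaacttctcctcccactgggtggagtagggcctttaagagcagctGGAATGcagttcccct
EHD2: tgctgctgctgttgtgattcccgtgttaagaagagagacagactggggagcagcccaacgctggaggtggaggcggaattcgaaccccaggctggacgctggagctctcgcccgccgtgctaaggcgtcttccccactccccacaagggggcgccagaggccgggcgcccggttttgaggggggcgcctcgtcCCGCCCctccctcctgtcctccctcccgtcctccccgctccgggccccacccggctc

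The 4 motifs searched on both strands were the TEAD motif GGAATG, the AP-1 motif TGANTCA, the antioxidant response motif TGACNNNGC and the GC box GGGCGG. TEAD factors bind DNA for YAP and TAZ, of which CTGF is a classical target. Within the 250 bases before the start, the TEAD motif stood in 11.9% of the 35116 promoters of the table. Among the entries of these genes it stood in 1, CAVIN2, starting 16 bases before the start. The AP-1 motif (6.57% of all promoters) and the antioxidant response motif (10.9%) stood in 0 of the 7 entries. The GC box stood in 42.6% of all promoters and in 6 of the 7 entries, all but that of CAVIN2. The 7 entries belong to 4 genes: CAV1 has 3, of which the first 2 overlap, and CAV2 has 2. They are therefore not 7 separate promoters. CAV2 held 6 GC boxes in the window shown, CAV1 held 3 and EHD2 held 1. The GC content of the windows shown was 83.2% for CAV2, 69.6% for EHD2, 63.6% for CAV1 and 48% for CAVIN2, beside a median of 58% over all promoters. A match describes the letters only.

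On the TPM scale (an abundance that corrects for transcript length and library size), the genes spanned a wide range. CAVIN1 was the most abundant, at 405 TPM in siControl, 385 in siCTGF, 285 in siControl with kahweol and 278 in siCTGF with kahweol. These levels placed it between rank 263 and rank 332 among 19319 protein-coding genes. CAV1 came next, at 202, 259, 104 and 92.0 TPM in the same order of libraries. CAVIN3, the cavin first known as a binding partner of protein kinase C delta, was at 178, 146, 78.0 and 69.8 TPM. CAV2, which joins CAV1 in mixed oligomers, was at 66.9, 64.2, 22.4 and 18.6 TPM. CAVIN2, a cavin that shapes membrane tubules, was at 19.0, 15.2, 6.87 and 3.87 TPM. EHD2 was at 11.0, 13.9, 4.07 and 4.31 TPM. The order of levels was the same in 3 libraries, and in siCTGF with kahweol EHD2 stood above CAVIN2. Over the 4 libraries the ranges of CAV1 and CAVIN3 overlapped, as did those of CAV2 and CAVIN2 and those of CAVIN2 and EHD2. The range of CAVIN1 lay above that of CAV1, and that of CAVIN3 above that of CAV2. The muscle paralogs were low: CAV3, the muscle caveolin, had 2 counts in siControl and 0 in the other 3 libraries, too few to pass the count filter, and CAVIN4, the muscle cavin, was at 1.71 to 2.43 TPM.

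**Figure D1:**
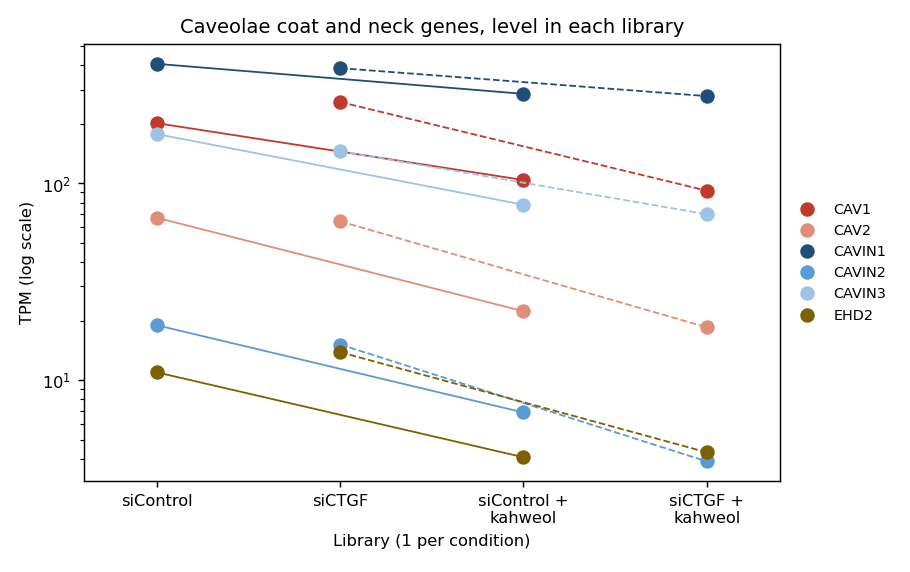
Level of each gene in each of the 4 libraries, as TPM on a log axis, with 1 point per library and no error bars since each condition has 1 library. Solid lines join the siControl libraries and dashed lines the siCTGF libraries without and with kahweol. Every line falls to the right, and that of CAVIN1 (405 to 285 and 385 to 278 TPM) falls least.

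With kahweol, all 6 genes were lower in both libraries than in both untreated libraries on the log2 CPM scale. The same was true of 37.1% of all genes tested, and 36.0% lay higher in both, with 0 of the 6 genes among these. The thresholds were the study's folds (over 1.3 and under 0.7), without the p-value cutoff that the paper added for its siCTGF genes. In siControl cells 5 of the 6 genes lay under 0.7, where 26.3% of all genes did. There 0 lay over 1.3, where 28.1% of all genes did. In siCTGF cells it was again 5 under 0.7 and 0 over 1.3, beside 24.2% and 28.4% of all genes. CAVIN1 was the gene between the thresholds both times. The median log2 fold change of the 6 genes was -1.08 in siControl and -1.31 in siCTGF cells, beside -0.02 and -0.00 over all genes tested. RNA of these bulk cultures does not tell fewer cells with caveolae from less of these mRNAs per cell.

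CAV1 (gene ID 857, chromosome 7 from 116165063 to 116201239, plus strand, GRCh37) had 15482 counts in siControl, 17686 in siCTGF, 6566 in siControl with kahweol and 6325 in siCTGF with kahweol. This is 248, 327, 152 and 142 CPM. The untreated pair was high and the kahweol pair low, with the highest value in siCTGF alone. The log2 fold change with kahweol was -0.70 in siControl (95% counting interval -0.76 to -0.65) and -1.20 in siCTGF cells (-1.26 to -1.14). Of all genes tested, 20.0% had a lower value in the first comparison and 7.83% in the second.

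CAV2 (gene ID 858, chromosome 7 from 116139792 to 116148595, plus strand) lies upstream of CAV1, and 16468 bases separate the genes. It was at 95.7 CPM in siControl and 95.4 in siCTGF, and at 37.7 and 33.1 CPM with kahweol (5980, 5164, 1627 and 1471 counts). The untreated libraries were nearly level and both kahweol libraries were far below them. Its log2 fold changes with kahweol were -1.34 (-1.46 to -1.23) in siControl and -1.52 (-1.65 to -1.41) in siCTGF cells, more negative than those of CAV1 in both.

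CAVIN1 (gene ID 284119, chromosome 17 from 40554467 to 40575274, minus strand) had 43815, 37521, 24992 and 26603 counts in siControl, siCTGF and their kahweol counterparts. On the CPM scale it was at 701 and 693 without kahweol and at 579 and 599 with it. The groups did not overlap, but the step between them was small. Its log2 fold change was -0.28 (-0.31 to -0.25) in siControl and -0.21 (-0.24 to -0.18) in siCTGF cells, values above those of 36.4% and 38.2% of all genes tested.

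The other cavins stood lower. CAVIN2 (gene ID 8436, chromosome 2 from 192699036 to 192711814, minus strand) was at 28.2 CPM in siControl and 23.4 in siCTGF, and at 11.9 and 7.16 CPM with kahweol. It had 318 counts in the lowest library. Its log2 fold changes with kahweol were -1.24 (-1.44 to -1.04) and -1.70 (-1.97 to -1.45), and the latter was the most negative of the 6 genes. CAVIN3 (gene ID 112464, chromosome 11 from 6340176 to 6341731, minus strand) was at 88.8 and 75.6 CPM without kahweol and at 45.6 and 43.4 CPM with it. Kahweol went with log2 fold changes of -0.96 (-1.07 to -0.86) in siControl and -0.80 (-0.91 to -0.69) in siCTGF cells.

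EHD2 (gene ID 30846, chromosome 19 from 48216679 to 48246391, plus strand) was at 18.7 CPM in siControl and 24.6 in siCTGF, and at 8.11 and 9.15 CPM with kahweol. Both kahweol libraries lay below both untreated ones, by a step nearer in size to that of CAV2 than to that of CAVIN1. The log2 fold change with kahweol was -1.20 (-1.46 to -0.96) in siControl and -1.42 (-1.66 to -1.20) in siCTGF cells. Its counts, 350 to 1329, gave it wide intervals.

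**Figure D2:**
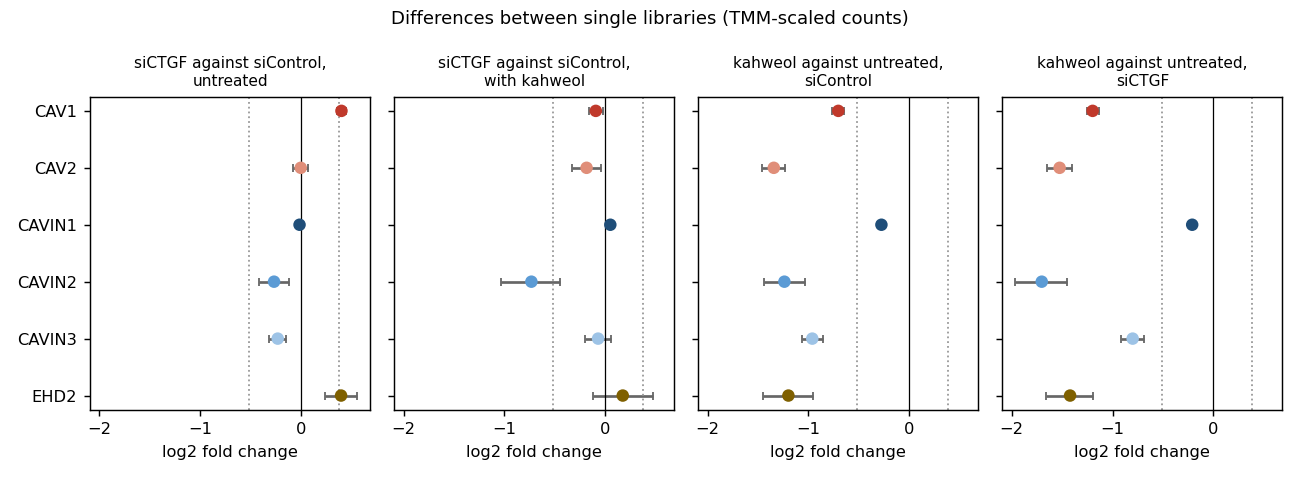
Log2 fold change of each gene in the 4 comparisons between single libraries (horizontal axis, TMM-scaled counts). Bars are 95% counting intervals, which are narrower than the points for CAVIN1, and dotted lines mark folds of 0.7 and 1.3. With kahweol all points lie left of 0 and 5 of 6 pass the left dotted line in each panel, while with siCTGF most points lie between the lines.

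**Figure D3:**
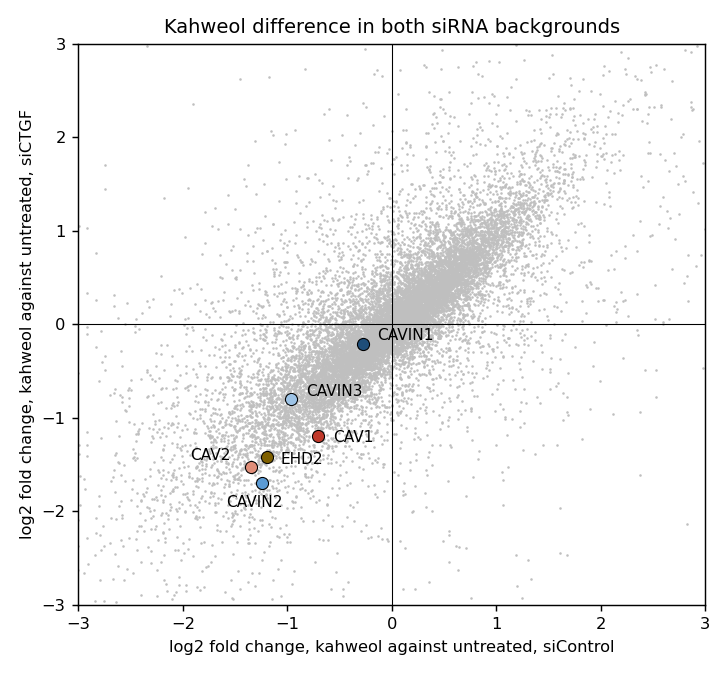
Log2 fold change with kahweol in siControl (horizontal axis) and in siCTGF cells (vertical axis) for the genes tested (grey, 16127 inside the axes and 472 outside) and the 6 genes (coloured, named). The 6 genes lie in the lower left, CAVIN1 near the centre at -0.28 and -0.21 and CAVIN2 lowest at -1.70.

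The siCTGF comparisons ask whether less CTGF changes these genes, and here the genes did not move together. Without kahweol, 2 of the 6 genes lay over 1.3 (9.63% of all genes) and 0 under 0.7 (8.99%). With kahweol, 0 lay over 1.3 (14.7%) and 1 under 0.7 (7.83%). Since both kahweol libraries lay below both untreated ones for all 6 genes, both siCTGF libraries could not lie above, or below, both siControl libraries. The count of 0 such genes, where 7.99% and 7.86% of all genes did, was therefore fixed by the kahweol ordering. It says nothing about siCTGF. The medians of the 6 genes were -0.01 without and -0.08 with kahweol, beside -0.01 and 0.00 over all genes.

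CAV1 and EHD2 were the genes over 1.3 in untreated cells, and both lay just inside. For CAV1 the fold was 1.32 (1.28 to 1.36), a log2 fold change of 0.40. For EHD2 it was also 1.32 (1.17 to 1.47). Both lost this place when counts were scaled without the low-count filter or on the TPM scale. With kahweol, CAV1 had a log2 fold change of -0.09 (-0.17 to -0.02) and EHD2 one of 0.17 (-0.12 to 0.47). CAVIN2 had the lower value in siCTGF both times, at -0.27 (-0.42 to -0.12) without and -0.73 (-1.03 to -0.45) with kahweol, where it was the gene under 0.7. CAV2 stood at -0.00 (-0.08 to 0.07) and -0.19 (-0.33 to -0.04), and CAVIN3 at -0.23 (-0.32 to -0.15) and -0.07. CAVIN1 stood at -0.02 and 0.05.

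The kahweol step was set side by side for the 2 siRNA backgrounds as the log2 fold change in siCTGF minus that in siControl. This difference was -0.49 (-0.58 to -0.41) for CAV1 and -0.46 (-0.78 to -0.14) for CAVIN2. It was -0.18 (-0.34 to -0.02) for CAV2 and -0.22 (-0.56 to 0.11) for EHD2. For CAVIN3 and CAVIN1 it had the other sign, 0.16 (0.01 to 0.31) and 0.07 (0.02 to 0.11). For CAV1 the larger step in siCTGF cells came mostly from the higher untreated value (327 against 248 CPM), and for CAVIN2 from the lower kahweol value (7.16 against 11.9 CPM). With 1 library per condition these differences were not tested.

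The make-up of the coat transcripts also differed with kahweol, with CAVIN1 taking a larger part. The summed TPM of the 6 genes was 883 in siControl and 884 in siCTGF, and 501 and 466 with kahweol. The ratio of cavin to caveolin TPM was 2.24 and 1.69 without kahweol and 2.92 and 3.18 with it. Within the cavins, CAVIN1 made up 67.3% and 70.5% of TPM without and 77.1% and 79.0% with kahweol. The ratio of CAVIN1 to CAVIN2 went from 21.3 and 25.4 to 41.6 and 71.7. Among the caveolins, the ratio of CAV1 to CAV2 was 3.03 and 4.04 without kahweol and 4.64 and 4.95 with it. For these 4 quantities and the sum, the kahweol pair and the untreated pair did not overlap. They follow from the levels of the single genes and are not separate results. On the log2(TPM + 1) scale the median of all genes was also lower with kahweol, at -0.17 in siControl and -0.18 in siCTGF cells.

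**Figure D4:**
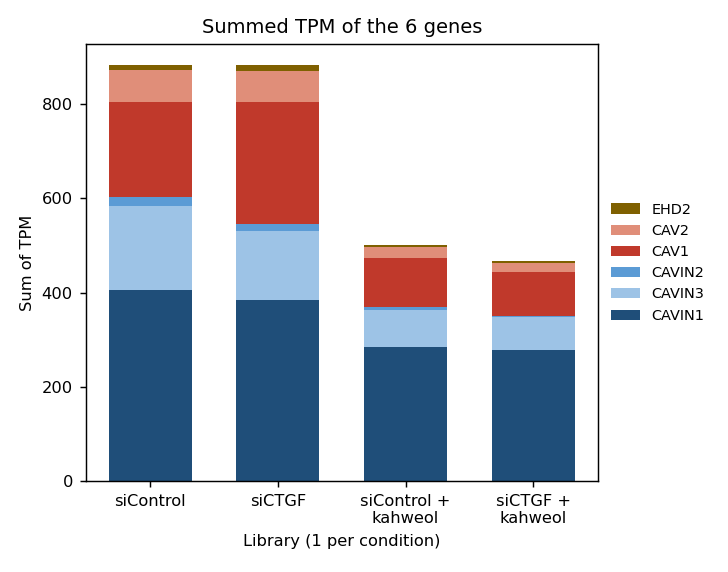
Summed TPM of the 6 genes in each library, stacked by gene, with cavins in blue, caveolins in red and EHD2 in brown (bars start at 0, 1 library per bar). The untreated bars reach 883 and 884 TPM and the kahweol bars 501 and 466 TPM, and CAVIN1 takes the largest part of each.

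No other gene of the table overlapped the span of any of the 6 genes. Within 250 kb lay 31 other protein-coding genes that passed the count filter. With kahweol, 2 of them were under 0.7 in both backgrounds and 4 over 1.3 in both. Taken singly, siControl and siCTGF cells had 26.3% and 24.2% of all genes under 0.7, and 28.1% and 28.4% over 1.3. The share of all genes past a threshold in both backgrounds, which cannot be larger, was not computed. Counts of neighbours past a threshold in both therefore have no like share beside them. Of the 4 genes over 1.3 in both, HPX had a mean count of only 12.25. Downstream of CAV1, the receptor tyrosine kinase gene MET starts 111011 bases away and had log2 fold changes with kahweol of -0.29 and -0.36. On the other side, TES, a focal adhesion protein gene 240955 bases from CAV2, stood at 0.32 and 0.28. The protein-coding gene nearest to CAVIN1, STAT3, 13954 bases away, stood at 0.08 and 0.12. Near CAVIN2 the only one was NABP1, 143643 bases away, which was also lower with kahweol, at -0.59 and -0.44. SMPD1, 69973 bases from CAVIN3, stood at 0.21 and 0.59, and NOP53, 2412 bases from EHD2, at 0.19 and 0.53. The noncoding neighbours, named after their values were seen, include 3 long noncoding RNAs that were under 0.7 in both backgrounds. These were LOC102724434, 213011 bases from CAV2 (-1.52 and -2.46), LOC108783654, 129180 bases from CAVIN1 (-0.81 and -0.75), and LOC105747689, 123841 bases from CAVIN2 (-1.14 and -0.79). The small nucleolar RNA SNORD23, 12719 bases from EHD2, was over 1.3 in both (0.88 and 1.52). LOC105747689 and SNORD23 had mean counts of only 51.75 and 30.75. Other noncoding neighbours did not pass the same threshold in both. The long noncoding RNA NAPA-AS1, near EHD2, stood at 1.18 and -0.69 (mean count 12.25), and the pseudogene PTP4A2P1, near CAVIN1, at 0.23 and 0.67 (29.75).

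Likeness was measured as the distance between log2 CPM values centred on each gene's mean, over the 4 libraries and 11746 protein-coding genes whose counts averaged 100 or more. The values were not scaled, so the distance depends on the size of the changes as well as on their direction. A gene with a small step, as CAVIN1, is thus far from genes with a larger step in the same direction. Nearest to CAV1 were RBMS2 (0.0560), SKA2 (0.0684) and GPR160 (0.0884). These genes, too, were highest in untreated siCTGF, RBMS2 at 81.5 CPM there against 59.7 in siControl and 37.9 and 34.0 with kahweol. Of the other coat genes, EHD2 came at rank 690 and CAVIN3 at 964 from CAV1, then CAV2 at 1760, CAVIN1 at 3501 and CAVIN2 at 4056. From CAVIN1, with PRXL2C, ZNF181 and OSBPL1A as its nearest genes, the other 5 ranked from 7370 (CAVIN3) to 10950 (CAVIN2).

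Genes outside the coat were read from a fit across all genes. This fit compares 2 libraries with 2 and takes the other factor as a covariate. The 2 libraries of a side differ in that other factor and are not replicate cultures. The fit has 1 residual degree of freedom. The gene lists below, too, were chosen with earlier results of these data known, so their p-values are descriptive and not independent tests. For kahweol this fit called 22.9% of all genes higher and 23.6% lower, and for siCTGF 0.0663% higher and 0.0602% lower (edgeR's quasi-likelihood test, adjusted p under 0.05). None of the 80 tested genes of the 5 lists below passed for siCTGF with edgeR, and 0 did with DESeq2 or limma-voom. At an unadjusted p under 0.05 edgeR gave 4 of the 80 higher and 6 lower, beside 851 and 794 of all 16599 genes. Of the muscle paralogs, CAVIN4 was tested and did not pass for kahweol.

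Caveola neck and accessory proteins went both ways with kahweol: of 19 genes, 5 rose, 6 fell and 8 did not pass, with a median log2 fold change of 0.03 in this fit. In the single comparisons this median was -0.03 in siControl and -0.15 in siCTGF cells. The genes that rose were VCP, the ATPase that extracts ubiquitinated caveolin for degradation, the kinases SRC and ABL1, which phosphorylate CAV1, PRKCD and the dynamin DNM2. VCP was at 975 and 936 CPM without and at 1549 and 1593 CPM with kahweol (log2 fold change 0.72, Benjamini-Hochberg adjusted p = 0.000116 by edgeR's quasi-likelihood test). Those that fell were EHD4, PACSIN1, PACSIN3, DNM3, PRKCA and ROR1. PACSIN1 was near the floor, at 0.592 and 0.499 CPM without and 0.139 and 0.0676 CPM with kahweol. ROR1, a receptor that binds CAVIN1 and CAV1, was at 17.2 and 16.2 CPM without and 9.15 and 7.28 CPM with kahweol (-1.03, edgeR adjusted p = 0.000909). PACSIN3, an F-BAR protein of caveolae, fell by 0.63 on the log2 scale (edgeR adjusted p = 0.00138), and EHD4, a close relative of EHD2, fell by 0.67 (0.00142).

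Flotillins and stomatins build membrane scaffolds apart from caveolae. Of the 6 listed, 5 were tested, of which FLOT1, FLOT2, STOML1 and STOML2 fell and STOM rose (median -0.38). FLOT2 was at 66.1 and 63.5 CPM without and 37.8 and 39.2 CPM with kahweol, a log2 fold change of -0.75 (edgeR's quasi-likelihood test, adjusted p = 0.000544). STOM rose by 0.75 (adjusted p = 0.000668 in the same edgeR fit).

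The clathrin coat is the other main coat of the surface membrane. Of 31 tested genes, 8 rose (CLTA, CLTC, ITSN1, ITSN2, FCHO2, SYNJ1, DAB2 and AAK1), 9 fell (CLTB, AP2A1, AP2A2, AP2M1, EPN1, EPN2, FCHO1, HIP1 and NECAP2) and 14 did not pass, with a median of -0.09. The clathrin heavy chain CLTC stood at 1111 and 1128 CPM without and 1417 and 1286 CPM with kahweol (0.27, adjusted p = 0.0104 by edgeR's quasi-likelihood test). SYNJ1, a lipid phosphatase of uncoating, rose by 1.34 (edgeR adjusted p = 0.000172), and AP2A1, an AP-2 subunit, fell by 0.69 (0.00233). EPN3 lay under 0.7 both times but did not pass (-1.45, edgeR adjusted p = 0.0857).

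Among receptors and signaling proteins found in caveolae, 24 of 27 were tested, and 2 rose (LRP6 and PTCH1), 8 fell (EGFR, TGFBR2, EDNRA, NOS3, SCARB1, GNAI1, GNAI2 and ATP2B4) and 14 did not pass, with a median of -0.20. NOS3, the endothelial nitric oxide synthase, which CAV1 binds, was at 4.05 and 3.66 CPM without and 0.996 and 0.879 CPM with kahweol (-2.04, edgeR adjusted p = 0.00179). EGFR was at 176 and 179 CPM without and 135 and 107 CPM with it (-0.56, edgeR adjusted p = 0.00301). The hedgehog receptor PTCH1 rose by 1.00 (edgeR adjusted p = 0.00105). The shares of these lists that fell, 6 of 19, 4 of 5, 9 of 31 and 8 of 24, stand beside the 23.6% of all genes. Those that rose, 5 of 19, 1 of 5, 8 of 31 and 2 of 24, stand beside 22.9%. No list was tested as a set.

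**Figure D5:**
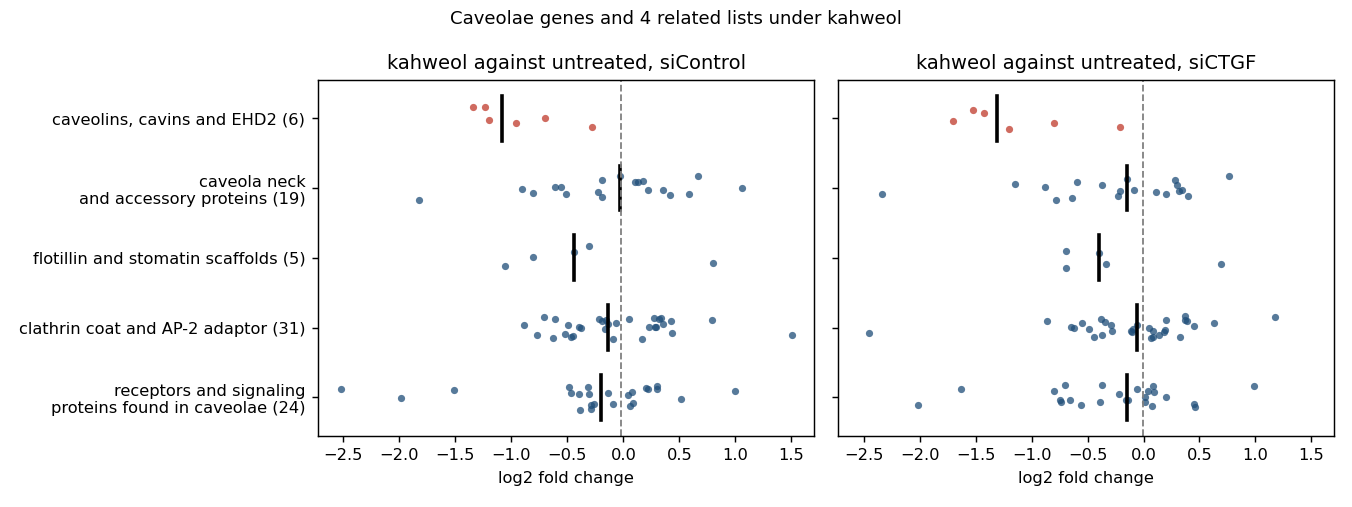
Log2 fold change with kahweol of each gene (points, spread vertically for sight) of the caveolins, cavins and EHD2 (red) and of 4 lists of related genes (blue), in siControl (left) and siCTGF cells (right), with the number of genes in brackets. Black bars are medians and the dashed line is the median of all genes tested. The medians of the 6 genes lie at -1.08 and -1.31, and the blue points lie on both sides of the dashed line in each list.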

How the data were processed

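RNA of 4 MDA-MB-231 cultures, 1 per condition, was sequenced from rRNA-depleted stranded libraries. According to the submitters' processing notes, the tools were Trimmomatic 0.38, FastQC 0.11.7, HISAT2 2.1.0, Bowtie2 2.3.4.1 and StringTie 2.1.3b on GRCh37.p13. The strand setting and filters are not given in the sources used here. The counts deposited by the authors are whole numbers per gene without normalization. FPKM and TPM were computed by the authors with StringTie, and the coverage signal, also deposited, served only to find what a count is (106 to 108 bases, near 1 read). Intervals therefore take 2 counts as 1 fragment and cover counting error only. Those of the fold changes are exact Clopper-Pearson intervals (95%). Those of the differences between the kahweol steps of the 2 siRNA backgrounds are normal approximations (95%). Total counts of 44781516 to 59129784 make the intervals narrow for abundant genes.

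TMM scaling was run in edgeR 4.0.16 under R 4.3.3. The filter kept the 16599 genes whose counts averaged 10 or more, and a prior count of 2 entered log2 CPM, the log2 of counts scaled to a common library size. Log2 fold changes are differences between single libraries. The fit over 4 libraries was edgeR's quasi-likelihood test, in which siRNA and kahweol each adjusted for the other. It has 1 residual degree of freedom, p-values were adjusted over all genes by Benjamini-Hochberg. Simulated counts of 16599 genes with a siCTGF effect gave 191 calls, 12 of them false, and recovered 98% of the log2 changes of 2 and 81% of the log2 changes of 1. With a kahweol effect, 8 of 180 calls were false, and 97% and 75% were recovered. The simulation changed few genes, gave all genes a common spread taken from these libraries, and added no interaction or second effect. The real kahweol fit called 7727 genes, far more than were simulated, so these rates may not hold for it. Real variation between cultures may be larger than simulated. The fit takes an interaction as noise. DESeq2 1.42.0 and limma 3.58.1 were alternatives, and tables were made in Python 3.11.15 (pandas 2.3.3, scipy 1.17.1). The members and the gene lists were chosen with earlier results of these data known. The genes named are the 6 genes, CCN2, protein-coding neighbours within 250 kb, list genes called in the fit or past the same threshold in both siCTGF or both kahweol comparisons (up to 3 per direction, mean count of at least 50), and the 3 genes nearest in pattern to CAV1 and CAVIN1. Markers of other cell types were named as a check.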

Additional observations from a re-analysis of the deposited data

Results flagged for a closer look

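CAV1 is set apart because its difference between siCTGF and siControl pointed in opposite directions without and with kahweol. The log2 fold change was 0.40 in untreated cells and -0.09 with kahweol, so the second lay -0.493 from the first, and neither 95% counting interval included 0. Each value rests on 1 library per condition, and the difference was not tested against variation between cultures.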

How the results depend on the processing

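Of 192 log2 fold changes of the 6 genes under 8 alternative scalings, filters and units, 35 left the counting interval and 4 changed sign, all 4 in the siCTGF comparisons of CAV2 and CAVIN1 (values near 0). None of the 96 kahweol values changed sign, and they ran from -1.94 to -0.20. Scaling to total counts moved the median of all genes with kahweol to -0.15 in both backgrounds, log2(TPM + 1) to -0.17 and -0.18, and log2(TPM + 0.1) to -0.24 and -0.25. In untreated cells the 2 genes past the thresholds with siCTGF became 1 with total counts, and 0 with no filter on low counts, with log2(TPM + 1), with log2(TPM + 0.1), and with fold thresholds of 1.5 or 2. With kahweol, the 1 gene past the thresholds with siCTGF became 0 at a fold of 2. In siControl cells the 5 genes past the thresholds with kahweol became 3 at a fold of 2, and in siCTGF cells the 5 became 4. The fit of all genes called 21 for siCTGF, and 75 with DESeq2 size factors, 50 with a mean count of at least 50, 131 with the DESeq2 Wald test and 60 with limma-voom. Without the covariate edgeR called 0, and before adjustment 25 higher and 22 lower genes had p under 0.05. The cause of these shifts was not tested. The kahweol count of that fit stayed within 1.5 times under every alternative run. No paired analysis was possible because each condition has 1 library and the labels give no replicate numbers. Leaving out 1 library leaves no residual degrees of freedom, so it was not run. Variation between cultures is unmeasured.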
